A study of Caenorhabditis elegans with 2 samples.

Results

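Regions called in EYG-1 chromatin immunoprecipitation sequencing (ChIP-seq) were examined where their summits fell in introns of protein-coding genes of Caenorhabditis elegans. The pooled list used here holds peaks together with background regions, so a listed region is not by itself a bound site. A region was included when its summit lay inside a protein-coding gene but in no annotated exon, outside the span from 1000 bp upstream to 200 bp downstream of every protein-coding 5' end, and more than 100 bp from every tRNA, snoRNA, snRNA, miRNA or ncRNA gene. This held for 6715 of the 24215 regions of the pooled list. The choice used position alone and no measured height. The worms were hermaphrodites of strain OP443, a stable transgenic line whose EYG-1 (a transcription factor, the product of eyg-1 or Y53C12C.1) carries GFP and FLAG at the C-terminus, collected as late embryos 4 hours after synchronization by egg bleaching. There was 1 group of 2 libraries, biological replicates 1 and 3, each precipitated with anti-GFP from sonicated chromatin of whole worms. What drives the fusion, and whether the untagged gene is also present, is not given in the sources used here. With 1 group and no list from a control, no test between groups could be made, and all values below are descriptions. In whole worms, few cells with strong binding and many cells with weak binding cannot be told apart, and neither library resolves a cell type.

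EYG-1 is a homeodomain protein named after Drosophila eyegone, and many homeodomains bind a short core of the TAATTA kind. Introns of C. elegans are mostly short, and the minority of long ones can hold enhancers, alternative promoters and nested genes. A signal in an intron can therefore belong to the gene around it, to an internal start of that gene, or to a neighbour, and the lists do not say which.

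The regions with the highest signal show what kind of sequence lay under these summits. The stretches below reach 50 bp to each side of the summit in the 6 strongest intron regions that were also in the optimal list, the shorter list that the authors kept at a cut on the irreproducible discovery rate. They are the plus strand of WBcel235 (ce11), with the letters of 6 searched motifs in capitals. The motifs were the homeodomain core TAATTA, the GA repeat GAGAGA, the TATA box TATAAA, the tRNA gene B box GTTCGANNC, the E-box CACGTG and the GATA site TGATAA. Each was searched on either strand, so that TCTCTC stands for the GA repeat on the other strand.
mom-1, chrX:6296478-6296578: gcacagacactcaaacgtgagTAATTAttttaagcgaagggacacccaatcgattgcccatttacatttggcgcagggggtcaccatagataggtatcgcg
pqn-41, chrIII:1921384-1921484: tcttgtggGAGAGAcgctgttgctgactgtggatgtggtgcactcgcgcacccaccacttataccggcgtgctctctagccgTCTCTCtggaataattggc
Y56A3A.7, chrIII:11946497-11946597: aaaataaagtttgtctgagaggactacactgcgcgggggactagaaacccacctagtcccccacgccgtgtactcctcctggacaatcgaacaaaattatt
F09A5.3, chrX:13145405-13145505: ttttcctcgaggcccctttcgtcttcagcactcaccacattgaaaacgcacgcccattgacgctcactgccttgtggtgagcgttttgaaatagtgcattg
inso-1, chrX:1302451-1302551: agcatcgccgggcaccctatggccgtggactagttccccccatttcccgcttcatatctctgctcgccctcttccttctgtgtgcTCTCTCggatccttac
Y62F5A.9, chrII:11537314-11537414: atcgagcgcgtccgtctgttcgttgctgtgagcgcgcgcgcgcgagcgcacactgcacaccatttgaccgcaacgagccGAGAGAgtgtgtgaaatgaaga
A homeodomain core was present in the mom-1 window, and GAGAGA in the windows of pqn-41, inso-1 and Y62F5A.9. The Y56A3A.7 window held an inverted repeat around its summit, with arms of 10 bp and a loop of 8 bp. The F09A5.3 window held another, with arms of 9 bp and a loop of 33 bp. GC content was between 47.5% (mom-1) and 60.4% (Y62F5A.9), in a setting where eligible intron sequence held 31.7% GC.

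Intron regions were numerous, low in signal and rarely in the optimal list. They made up 27.7% of the pooled regions, and the eligible intron sequence, 26.2 Mb, made up 26.2% of the genome. Their density was 255.95 regions per Mb of eligible sequence, beside 311 per Mb in promoters, 617 per Mb around small RNA genes, 134 per Mb in exons, 224 per Mb between genes and 241 per Mb in the whole genome. Intron regions were therefore about as dense as the genome average. Their height, the authors' peak caller signal as deposited, had a median of 17.6 and quartiles of 15.2 and 21.5, against a median of 18.2 over all pooled regions, 19.3 in promoters, 17.9 between genes and 17.1 in exons. The upper end differed more from promoters. The 99th percentile was 47.5 in introns, against 101.4 in promoters, 59.7 between genes, 35.6 in exons and 85.7 over all regions. The highest intron region reached 117.3, against 445.7 in promoters, 139.4 between genes and 130.7 in exons.

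Few intron regions passed either of the stricter readings of the lists. The median −log10 q was 0.088 in intron regions and 0.100 over all pooled regions, so most of either are weak calls. A −log10 q of at least 2 was reached by 113 intron regions (1.68%), against 5.56% of all pooled regions. A summit of the optimal list lay within 100 bp in 31 of 6715 (0.462%, exact 95% binomial interval 0.314% to 0.655%, which covers counting error only and takes regions as independent), against 2.1% of all pooled regions. The same share was 3.37% in promoters, 12.7% around small RNA genes, 0.999% between genes and 0.221% in exons. The 31 intron regions matched 31 separate summits, 5.97% of the 519 in the optimal list. Their signal in that list was between 72.0 and 124.3 with a median of 83.6, against a median of 90.8 in promoter summits.

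Presence in the optimal list followed the pooled signal, which was called from the same reads. All 12 intron regions with a signal of 80 or more were in it, and 0 of the 4517 below 20. Between 60 and 80, 8 of 21 were in it (38.1%), against 81 of 170 in promoters (47.6%) and 24 of 37 between genes (64.9%). Between 50 and 60 the order was another, with 7 of 20 in introns, 18 of 182 in promoters (9.89%) and 8 of 34 between genes (23.5%). At a given height the intron share was thus below promoters in the first of these ranges and above them in the next, on few regions in both.

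**Figure D1:**
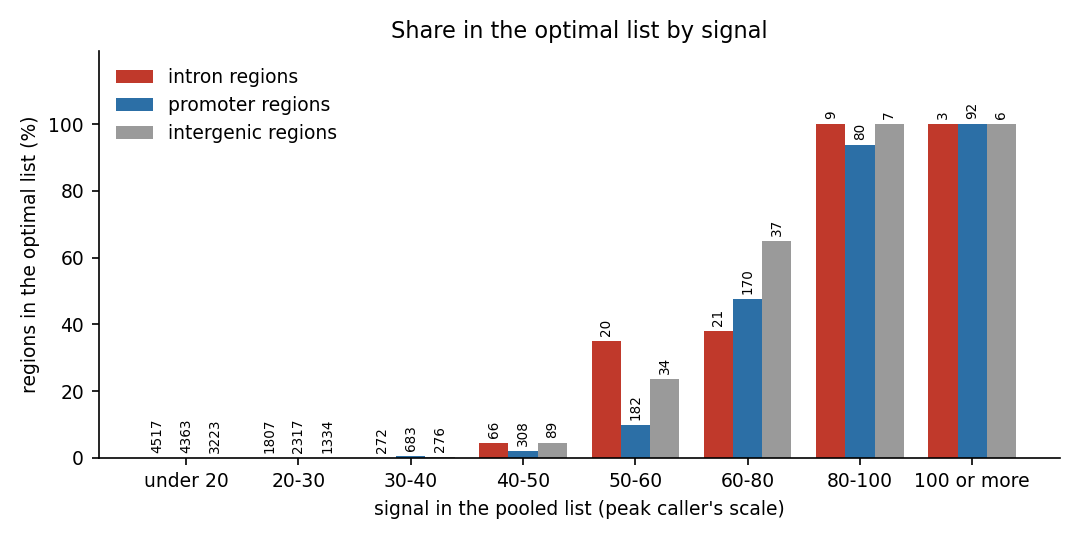
Percent of pooled regions with a summit of the optimal list within 100 bp (vertical axis), by range of pooled signal (horizontal axis), for intron, promoter and intergenic regions; the number over each bar is the number of regions in it. The 12 intron regions at 80 or more were all in the optimal list, while 4517 intron regions lay below 20 and 0 of these were in it.

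Agreement between the libraries was low for most intron regions. A summit of replicate 1 lay within 100 bp of 2921 (43.5%), and a summit of replicate 3 within 100 bp of 3301 (49.2%). In both lists together there were 928 (13.8%), against 18.2% of all pooled regions and 23.1% of promoter regions, while 1421 (21.2%) had a match in neither. Among the 928, the signals of the libraries had a Pearson r of 0.466 and a Spearman rho of 0.264, and over all 4412 such pooled regions 0.677 and 0.456. These points share the pooled list and its minimum height. The match rate rose with height: 3.25% of intron regions below 20 were in both lists, 28.6% between 20 and 30, 61.4% between 30 and 40, and 77.3% between 40 and 50.

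The 31 in the optimal list were mostly seen in both libraries, though often high in just a single one. Both lists held 26 of them, and their median rank was 436 in replicate 1 and 442 in replicate 3. Signals are on each list's own scale, so places within each list are used below. Among the first 519 regions by signal were 19 of the 31 in replicate 1, 16 in replicate 3, and 9 in both. Of all 6715 intron regions, 30 were among the first 519 of replicate 1 and 32 among those of replicate 3, and 9 among both, so that the other members with a high rank in a replicate ranked high in that library alone.

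**Figure D2:**
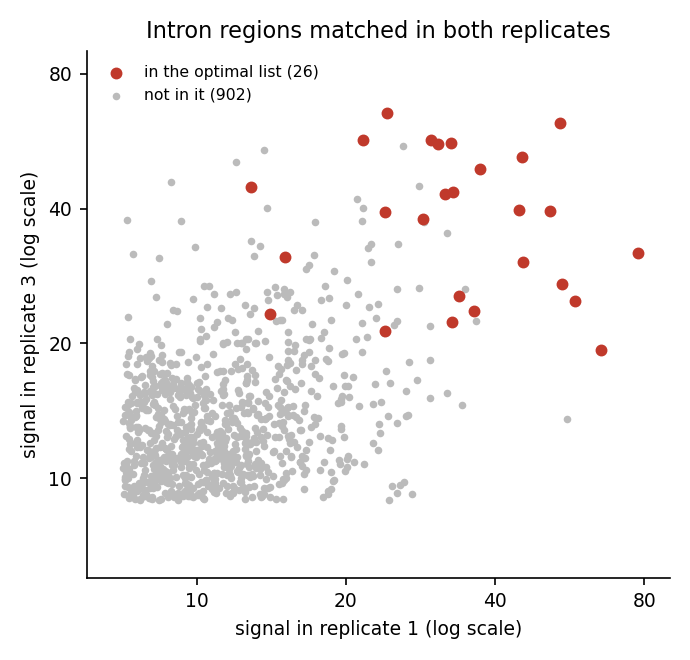
Signal in replicate 3 against signal in replicate 1, both on log scales, for the 928 intron regions matched in both lists; red points are the 26 in the optimal list, grey points the 902 that were not; each axis is on its own list's scale. The red points lie at the upper right, and some are high on a single axis, such as pqn-41 with 65.3 in replicate 1 and 19.3 in replicate 3.

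Among genes of intercellular signalling, the strongest intron region belonged to mom-1, the Porcupine homolog needed for Wnt secretion. It lay on chromosome X from 6296457 to 6296577, in the last of 7 introns, 35 bp from the 5' splice site, with a pooled signal of 117.3, 53.97 in replicate 1 and 62.2 in replicate 3. It was among the first 519 regions of both replicate lists and, at 121 bp, was much narrower than the 456 bp of most regions. The region in Y56A3A.7, 179 bp wide, was the only other intron region narrower than 456 bp.

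In lit-1, a Nemo-like kinase gene of the Wnt pathway, the region on chromosome III from 13721099 to 13721554 lay in intron 8 of 10. Its signal was 85.1 in the pooled list, 32.5 in replicate 1 and 56.0 in replicate 3, and its window held 73.3% GC, the highest of the 31. The region in daf-14, a Smad gene of TGF-beta signalling, lay in the first intron (chromosome IV, 10252338 to 10252793) and had 51.04 in the pooled list, 15.04 in replicate 1 and 31.2 in replicate 3. That in lag-1, the CSL transcription factor of Notch signalling (chromosome IV, 6096961 to 6097416), had 44.5 in the pooled list and 40.3 in replicate 3, and no match in replicate 1. Of these 3, lit-1 was among the first 519 regions of both lists, lag-1 among those of replicate 3, and daf-14 in neither.

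Genes of transcription and chromatin came next. In lsy-22, a gene of the Groucho co-repressor family, an 11392-bp first intron held 2 regions of the optimal list on chromosome I. The stronger, from 7711517 to 7711972, had 84.4 in the pooled list, 24.2 in replicate 1 and 65.4 in replicate 3, and the weaker, from 7712563 to 7713018, had 55.5, 24.0 and 21.4. The stronger was among the first 519 regions of replicate 3, and the weaker of neither list. In ldb-1, a LIM domain-binding cofactor, the region in intron 2 (chromosome X, 11031146 to 11031601) had 72.8 in the pooled list, 31.7 in replicate 1 and 43.1 in replicate 3. In egl-27, a homolog of the metastasis-associated proteins of nucleosome remodelling complexes, that in intron 5 (chromosome II, 6838815 to 6839270) had 44.7 in the pooled list and 35.7 in replicate 3, with no match in replicate 1.

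Neuronal wiring genes held 3 of the 31. In smp-1, a semaphorin gene, the region in the first intron (chromosome I, 14808266 to 14808721) had 70.1 in the pooled list, 54.6 in replicate 1 and 27.1 in replicate 3. In vab-2, an ephrin gene, that in the first intron (chromosome IV, 3763420 to 3763875) had 50.7 in the pooled list, 32.7 in replicate 1 and 22.3 in replicate 3. In unc-33, a CRMP gene of axon outgrowth, that in intron 7 (chromosome IV, 3520972 to 3521427) had 42.5 in the pooled list, 14.1 in replicate 1 and 23.3 in replicate 3. The regions of smp-1 and vab-2 were among the first 519 of replicate 1, and that of unc-33 of neither list.

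The gene pqn-41, which encodes a glutamine- and asparagine-rich protein, held the most optimal regions, 3 in its 10372-bp intron 14 on chromosome III. From the 5' side, the regions lay at 1921206 to 1921661, 1923493 to 1923948 and 1925127 to 1925582, with pooled signals of 114.4, 59.8 and 86.3. Replicate 1 gave them 65.3, 36.2 and 30.7, and replicate 3 gave them 19.3, 23.6 and 55.9. The order of the 3 was therefore opposite in the libraries, falling along the gene in replicate 1 and rising in replicate 3. In the whole gene there were 17 intron regions with a median signal of 21.96.

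In F09A5.3, a 9659-bp first intron on chromosome X held a further pair. That from 13145227 to 13145682 had 97.2 in the pooled list, 45.4 in replicate 1 and 52.2 in replicate 3, and that from 13144133 to 13144588 had 76.8, 21.7 and 57.003. Both were among the first 519 regions of replicate 3, and the first also of replicate 1. Besides pqn-41, lsy-22 and F09A5.3, each of the other genes with an optimal region held 1.

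**Figure D3:**
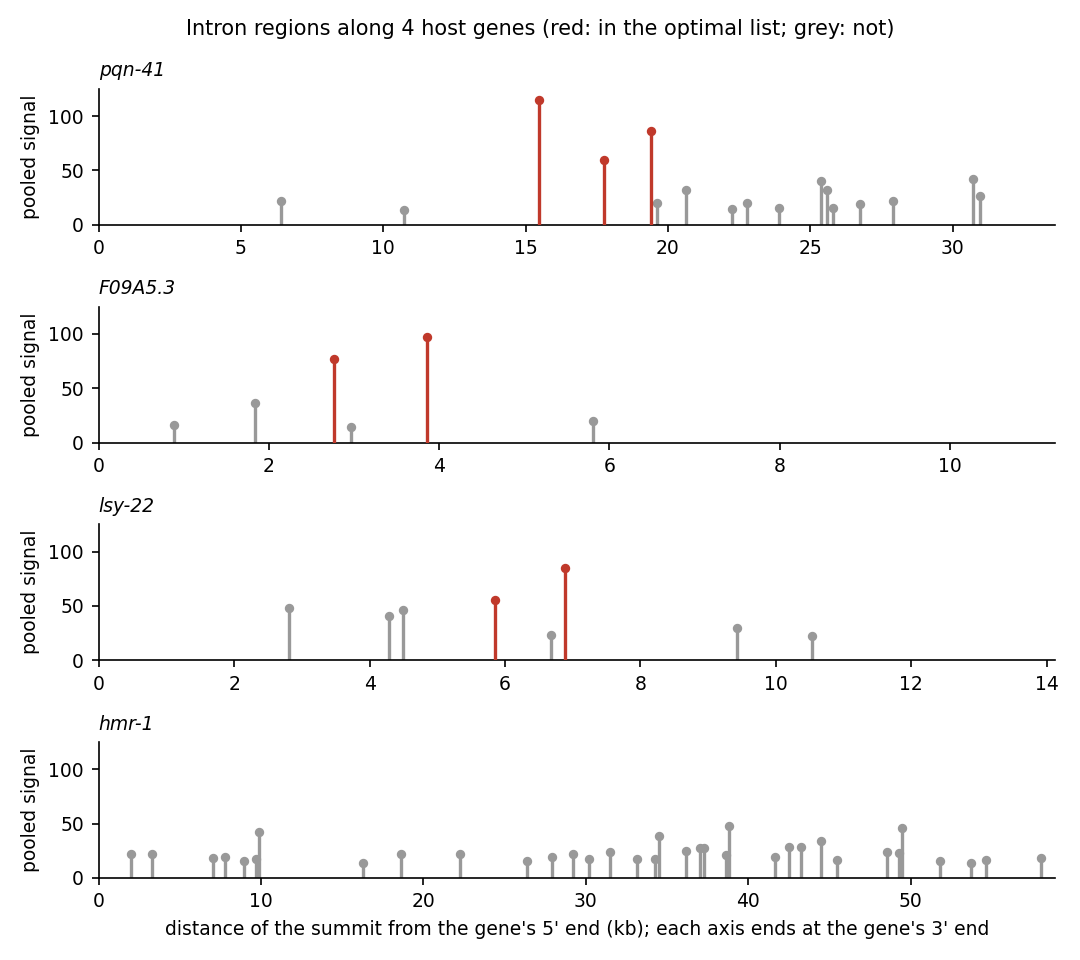
Pooled signal of each intron region (vertical axis) against the distance of its summit from the 5' end of the gene in kb (horizontal axis), along pqn-41, F09A5.3, lsy-22 and hmr-1; red marks regions in the optimal list and grey the others. The optimal regions of pqn-41, F09A5.3 and lsy-22 sit together within their gene, and the 35 regions of hmr-1 stay at or below 47.5.

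Regulators of small GTPases, phosphatases, protein turnover and translation made up a further group. The RhoGEF gene rhgf-3 had a region in its 12284-bp first intron (chromosome I, 14612580 to 14613035) with 56.8 in the pooled list, 12.9 in replicate 1 and 44.8 in replicate 3. The gene ppfr-1, a protein phosphatase 4 regulatory subunit, had 55.6 in the pooled list, 24.0 in replicate 1 and 39.3 in replicate 3 in its intron 5 (chromosome I, 9381241 to 9381696). Both were among the first 519 regions of replicate 3 and not of replicate 1. For spop-1, a BTB adaptor of ubiquitin ligases (first intron, chromosome III, 10094486 to 10094941), the values were 61.6 in the pooled list, 33.9 in replicate 1 and 25.6 in replicate 3. For gid-2, a subunit of the GID ubiquitin ligase (intron 3, chromosome X, 2432472 to 2432927), they were 53.5 in the pooled list and 29.4 in replicate 1, with no match in replicate 3.

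In larp-1, which encodes a La-related RNA-binding protein, 2 intron regions lay 200 bp apart, and whether they are a single site is not known. The optimal summit lay 85 bp from an intron region with a pooled signal of 25.6 (chromosome III, 5013955 to 5014410, 37.96 in replicate 1) and farther than 100 bp from another with 73.2 (5013755 to 5014210, 46.9 in replicate 3). The weaker was therefore counted as in the optimal list and the stronger was not. The value of 25.6 was the lowest of the 31, and the next was 42.5 in unc-33.

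The remaining regions of the optimal list lay in genes with a sequence name or a less described role. Y56A3A.7 (chromosome III, 11946460 to 11946638, a 247-bp intron) had 112.3 in the pooled list, 77.6 in replicate 1 and 31.8 in replicate 3. The first intron of inso-1 (chromosome X, 1302273 to 1302728) gave 94.2 in the pooled list, 51.7 in replicate 1 and 39.5 in replicate 3. Y62F5A.9 (chromosome II, 11537136 to 11537591) had 86.4 in the pooled list, 37.2 in replicate 1 and 48.9 in replicate 3. Those of inso-1 and Y62F5A.9 were among the first 519 of both lists, and that of Y56A3A.7 of replicate 1 alone. Y41G9A.17 (chromosome X) had 85.5 in the pooled list, 29.8 in replicate 1 and 56.99 in replicate 3. Y39A1C.1 (chromosome III), in a 353-bp first intron, had 84.9 in the pooled list, 44.6 in replicate 1 and 39.6 in replicate 3. W05H12.1 (chromosome I) had 81.5 in the pooled list, 57.9 in replicate 1 and 24.9 in replicate 3. Among these, Y39A1C.1 stood closest to a 5' end, at 239 bp. Y45G5AM.9 (chromosome V) had 79.3, gei-4 (chromosome III) 74.8, K01F9.2 (chromosome III) 74.8 and Y67D8A.2 (chromosome IV) 66.3 in the pooled list. K01F9.2 had a match in replicate 1 alone, at 36.1.

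Some strong intron regions were not in the optimal list, and the genes in this paragraph were picked after their values were seen. The strongest was in zfp-1, a chromatin gene related to AF10, with 73.5 in the pooled list and 33.9 in replicate 1 but no match in replicate 3. In hmt-1, an ABC transporter gene of heavy metal tolerance, the pooled signal was 70.9, with 55.9 in replicate 1 and 13.6 in replicate 3. Both were among the first 519 regions of replicate 1 alone. In the actin gene act-4 the pooled signal was 65.8, with 28.7 in replicate 1 and 37.4 in replicate 3, and in the Mediator subunit gene mdt-26 it was 65.3, with 26.1 and 55.1. The optimal list kept some regions of lower pooled signal, such as that of spop-1 with 61.6.

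Introns with a region were long beside the median intron of this genome, but much less so when introns were weighed by their bases. The intron around the summit, taken in the transcript with the longest summed exons, had a median length of 1048 bp (quartiles 568.5 and 2730.5 bp, n = 6699), and the longest had 100912 bp. The 103153 introns of the longest transcripts had a median of 63 bp. Short introns hold few bases each, so the same was measured by base, and equal amounts of eligible intron sequence lay in introns shorter and longer than 893 bp. The 1048 bp is near that length, so most of the contrast with 63 bp is already present in the eligible sequence. A further 16 regions lay in a gene but in no intron of a protein-coding transcript. The summit lay at a median of 49.02% of the way along its intron, and a median of 266 bp from the nearer splice site.

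The density of intron regions and their share in the optimal list were both highest in the longest introns. In introns under 500 bp there were 182 regions per Mb of eligible sequence, and in introns of 10000 bp or more 406 per Mb. The ranges between gave 288, 290, 265 and 344 per Mb, so that the order was not strict. The bases were taken from the longest transcript of each gene, while a region could be placed in another transcript, so these densities are approximate. A region in introns of several genes was placed in the gene with the lowest start coordinate, which can be the long outer intron around a nested gene. In the optimal list were 2 of 1400 regions of the shortest class (0.143%) and 7 of 374 of the longest (1.87%). In introns from 2000 to 5000 bp it was 11 of 1009 (1.09%), and from 5000 to 10000 bp 5 of 663 (0.754%). Of the 7 in the longest class, 3 lay in 1 intron of pqn-41 and 2 in 1 intron of lsy-22. The share of that class thus rests on few introns. The 31 optimal regions lay in introns with a median length of 4047 bp, from 247 bp in Y56A3A.7 to 12284 bp in rhgf-3. Signal itself moved little, with medians of 17.2 in the shortest class and 17.9 in the longest. GC content around the summits moved with length, with medians of 31.7% in the shortest class and 36.6% in the longest, and its part in the result was not tested.

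**Figure D4:**
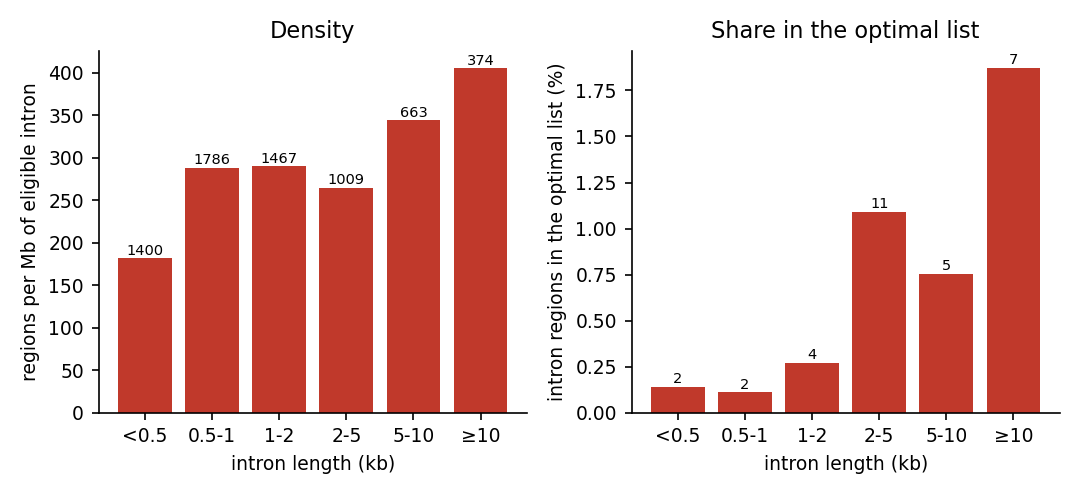
Left, intron regions per Mb of eligible intron sequence; right, percent of intron regions in the optimal list; both by intron length in kb, with the number of regions (left) and of optimal regions (right) over each bar. Density is 182 per Mb in the shortest class and 406 per Mb in the longest, and the optimal share is 0.143% and 1.87%.

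The first intron held 1524 regions (22.7%), beside 20.1% of the eligible intron bases. Density was 296 per Mb in first introns, and between 249.9 and 256.1 per Mb in each later position. The bases were taken from 1 transcript per gene, the longest, while a region could be placed in another transcript. These shares of bases and densities are therefore approximate, and the size of the mismatch was not measured. In the optimal list were 13 regions of first introns (0.853% of them, 41.9% of the 31) and 18 of the 5175 in later introns (0.348%). First introns with a region were also longer, with a median of 2122 bp, against 1012 bp for the next in order. The median pooled signal was 17.7 in first introns and 17.5 in later ones. Later introns were not alike: intron 5 held 6 optimal regions, 1.003% of its 598 and above the share of first introns, and introns 2 and 3 held 2 each.

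Optimal intron regions lay about as far from annotated starts as intron regions in general, and more of them lay upstream of an internal start. The nearest protein-coding 5' end was a median of 1931 bp away for the 31, from 239 to 8115 bp, and 1724 bp away for all intron regions. That end belonged to the host gene in 30 of 31 (96.8%), beside 5557 of 6715 (82.8%). The exception was mom-1, where it belonged to cest-16. In 9 of the 31 (29.0%) the summit lay upstream of an internal start of its own host, as in inso-1, gei-4, spop-1, vab-2 and daf-14, beside 730 of all intron regions (10.9%). The 9 include the pqn-41 regions 2316 and 3950 bp from the nearest 5' end, which share an intron. Optimal regions also lay in longer introns, with a median of 4047 bp beside 1048 bp. The part of intron length and of the number of annotated starts in these shares was not tested. Many annotated 5' ends in C. elegans are sites of trans-splicing, so these distances are to annotated ends.

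Hosts were common and mostly held 1 region. Of the 17287 genes with eligible intron sequence, 3669 (21.2%) hosted a region, and hosts had a median of 2.54 kb of such sequence beside 0.678 kb over all these genes. A single region was found in 2293, 2 in 684, 3 to 9 in 662, and 10 or more in 30 genes. The number of regions and the eligible length had a Spearman rho of 0.522 over the 17287 genes, a description in which most genes have 0 regions. Within introns, 885 of 5367 introns with a region held 2 or more, and neighbours in the same intron had a median spacing of 781 bp. Overlapping regions were counted separately: 1572 intron regions (23.4%) overlapped another pooled region, against 26.9% of all pooled regions. Regions from the optimal list were in 27 host genes, 0.736% of the hosts.

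The gene with the most regions, hmr-1, had 0 in the optimal list, which is near the background of 0.462% of all intron regions. It is the classical cadherin gene, on chromosome I, with 35 regions, some of them overlapping, in 44.1 kb of eligible intron sequence. Their median signal was 21.5 and the highest 47.5. Of these, 12 were matched in both replicates and 3 had a −log10 q of at least 2. The strongest, 38.8 kb into the gene in the 18310-bp intron 21, had 9.30 in replicate 1 and 37.5 in replicate 3. Next were gcn-1, a regulator of translation, and afd-1, the afadin gene of cell junctions, with 18 each and highest signals of 36.9 and 30.1. The AMPK gamma subunit gene aakg-1 held 17, and sos-1, a Ras exchange factor gene, and F53A10.2 held 16 each. The gene frl-1 held 15, cox-6B 14 and denn-4 13. Of the 10 genes with the most regions, pqn-41, with 17, was the only host with optimal regions, beside 0.736% of all hosts. The count of cox-6B, a cytochrome c oxidase subunit gene, is shared: 13 of its 14 regions also lay in introns of other genes nested in its 86515-bp intron.

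The promoters of the hosts were compared as a separate readout. A pooled region lay in the span from 1000 bp upstream to 200 bp downstream of a 5' end of the same gene in 21 of the 27 genes with an optimal intron region (77.8%), in 51.6% of all hosts and in 36.3% of all genes with eligible introns. An optimal region lay there in 3 of the 27 (11.1%), which were mom-1, larp-1 and Y45G5AM.9, in 2.53% of the hosts and in 1.75% of genes with eligible introns. In the other 24 genes the intron region was thus not accompanied by an optimal region at an annotated start of that gene. All annotated 5' ends of a gene were counted, so genes with more of them could have more such sequence. The part of this in the shares was not tested.

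Lists of developmental genes differed in how often they were hosts, beside 21.2% and 252 regions per Mb over all genes with eligible introns. The lists were chosen with earlier results of these data known, so their shares are descriptions and cannot support a theme. Of 66 genes of axon guidance and adhesion, 43 were hosts (65.2%), with 477 regions per Mb of their eligible intron sequence and 10 of 207 regions with a −log10 q of at least 2 (4.83%), against 1.68% of all intron regions. Of 60 genes of Wnt, Notch and TGF-beta signalling, 26 were hosts (43.3%), with 428 per Mb and 7 of 75 such regions (9.33%). In the axon guidance and adhesion list, hmr-1 alone gave 35 of the 207 regions and 3 of the 10 with a −log10 q of at least 2. This list held 3 genes with an optimal region among its 43 hosts, smp-1, vab-2 and unc-33. The signalling list held 3 among its 26 hosts, lit-1, daf-14 and lag-1. The signalling list does not hold mom-1. The other 9 lists held 0 genes with an optimal region, where 0.736% of all hosts held such a region, so that 0 is near the background in lists of this size. Genes of these lists have long introns, with a median eligible length of 3.72 kb for axon guidance and 1.42 kb for signalling, beside 0.678 kb, and the part of length in the share of hosts was not tested.

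The lists of transcription factors gave lower shares of hosts than those. A −log10 q of at least 2 was reached by 4 of 94 regions in nuclear hormone receptor genes (4.26%), against 1.68% of all intron regions. It was reached by 0 of 58 in homeobox genes and 0 of 13 in bHLH genes, near that background in lists of this size. Of 95 homeobox genes 32 were hosts (33.7%), of 269 nuclear hormone receptor genes 52 (19.3%) and of 39 bHLH genes 6 (15.4%), with 282, 232 and 230 regions per Mb. The strongest homeobox hosts were pal-1, the caudal homolog, with 33.99, and ceh-18, a POU gene, with 32.6 in the pooled list. Among nuclear hormone receptors nhr-3 had 59.3 and nhr-46 had 46.2, each matched in replicate 3 alone. The bHLH genes ahr-1, the aryl hydrocarbon receptor, and hlh-2, the daughterless homolog, had 27.4 and 25.3.

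Lists of differentiated cell functions held hosts whose regions were weaker than all but 1 of the optimal regions. The same was true of the homeobox and bHLH lists. Of the ion channel genes 56 were hosts (50%), with kqt-1, a potassium channel gene, at 38.3 and unc-2, a calcium channel subunit gene, at 32.5. Of the neurotransmitter receptor genes 43 were hosts (34.4%), with lgc-46 at 36.8 and lgc-53 at 33.3. Genes of synapse and vesicle release were hosts in 15 of 31, with rab-3 at 29.6 and rimb-1 at 23.6. All of these highest values were below the lowest but 1 of the optimal regions, 42.5. Muscle genes were hosts in 22 of 50, led by the tropomyosin gene lev-11 at 35.8 and the talin gene tln-1 at 29.6. Basement membrane genes were hosts in 10 of 22, led by cle-1, a type XVIII collagen gene, at 27.6 and the laminin gene lam-1 at 25.04. G protein signalling genes were hosts in 24 of 63, led by the protein kinase A gene kin-1 at 36.8 and the phospholipase C gene egl-8 at 28.6. Regions per Mb in these lists were between 168 for neurotransmitter receptors and 296 for muscle genes.

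The chromosomes differed in density and in optimal regions. Per Mb of eligible intron sequence there were 321 regions on chromosome III, 293 on I, 277 on II, 224 on IV, 223 on V and 199 on X. All pooled regions, per Mb of chromosome, were at 304, 296, 252, 219, 188 and 222, so that X ranked last in introns and not in the whole list. Optimal intron regions numbered 10 on III, 7 on X, 6 on I, 5 on IV, 2 on II and 1 on V. The share in the optimal list was highest on X, 0.807%, as it was over all pooled regions, 3.302%. Between 25% and 75% of the chromosome's length lay 35.3% of intron regions and 13 of the 31 in the optimal list (41.9%), beside 44.04% of all pooled regions and 54.9% of all those in the optimal list.

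The sequence around the summits of optimal intron regions was richer in GC than that of the others. Median GC content within 50 bp of the summit was 33.7% in intron regions, against 36.6% over all pooled regions, and 48.5% in the 31 (from 35.6% in egl-27 to 73.3% in lit-1), against 50.5% in optimal promoter regions. In the optimal list were 0 of the intron regions below 35% GC, 1.498% of those from 45% to 50% and 4.04% (15 of 371) of those with 50% or more. Within the same GC range the promoter share was higher, 6.80% from 45% to 50% and 13.6% at 50% or more. The last of these ranges has no upper limit, and GC content was not matched within a range. GC content can also affect sequencing yield, and its part in the heights was not tested.

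The hexamer GAGAGA was found in few intron regions and in many of the strong ones. It lay within 50 bp of the summit, on either strand, in 382 of 6715 (5.69%), against 8.56% of all pooled regions and 9.85% of promoter regions. In the 31 optimal intron regions it was found in 12 (38.7%), against 110 of 508 optimal regions of all kinds (21.7%) 18.1% of optimal promoter regions and 23 of 50 optimal regions between genes (46%). A high share among strong regions was thus not particular to introns. In those with a −log10 q of at least 2 it was found in 39 (34.5%), against 21.2%. The share with GAGAGA that was in the optimal list was 3.14% of intron regions, against 0.300% of intron regions without it, and between genes these shares were 4.46% and 0.601%. Across GC ranges the hexamer was present in 1.88% of intron regions below 30% GC and in 17.3% at 50% or more, against 3.27% and 21.7% of promoter regions. On the strand of the host gene, the match read TCTCTC in 226, GAGAGA in 141 and both in 15 of the 382, and in the 12 optimal regions TCTCTC in 8, GAGAGA in 3 and both in 1.

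**Figure D5:**
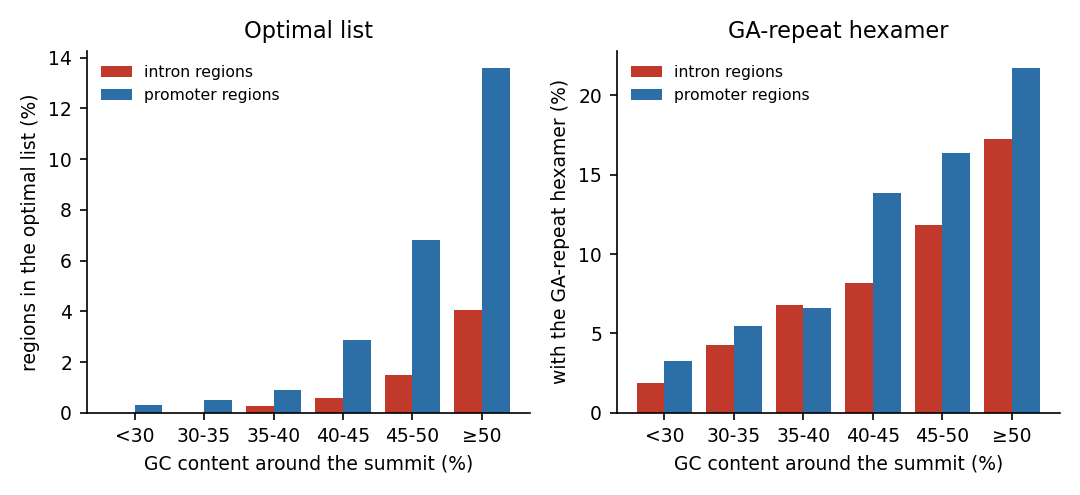
Percent of regions in the optimal list (left) and percent with the GA-repeat hexamer within 50 bp of the summit (right), for intron and promoter regions by GC content of the same window. The optimal share at 50% GC or more is 4.04% in introns and 13.6% in promoters, and the hexamer share 17.3% and 21.7%.

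The other 5 motifs were found in few or none of the optimal intron regions. The homeodomain core TAATTA was found in 6.03% of intron regions, against 5.17% of all pooled regions, and in 2 of the 31 (6.45%), mom-1 and vab-2. The TATA box TATAAA was found in 11.97% against 10.95%, and in 1 of the 31, larp-1. The GATA site TGATAA was found in 6.92% against 6.94%, the E-box CACGTG in 1.27% against 1.78%, and the B box of tRNA genes, GTTCGANNC, in 0.774% against 1.26%, each in 0 of the 31. Over all optimal regions the shares were 1.38% for TAATTA, 4.33% for TATAAA, and 1.97% for each of TGATAA and CACGTG. For TGATAA and CACGTG, 0 of 31 is near that background. The share of TAATTA in the 31 rests on 2 regions. GTTCGANNC was found in 10.6% of all optimal regions, and the rule for intron regions leaves out the surroundings of tRNA genes. A motif that is absent from a window says only that these letters are not there.

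Repeated and self-complementary sequence was found under a larger share of intron regions than of all pooled regions. A sequence of 30 bp that occurs more than once in the genome was present within 50 bp of the summit in 17.4% of intron regions, against 12.6% of all pooled regions, and in 2 of the 31 (6.45%). Of the optimal regions of other kinds, 6.0% of those between genes, 10.5% of those in promoters and 49.3% of those around small RNA genes, which the rule for introns leaves out, held such a sequence. A perfect inverted repeat with arms of at least 9 bp and a loop of 3 to 60 bp was present in 13.6% of intron regions, against 8.30%, and in 5 of the 31 (16.1%), against 3.94% of all optimal regions. In pqn-41 the region at 1925127 had arms of 19 bp, and in Y39A1C.1 arms of 14 bp. Intron regions with arms of at least 9 bp had a median GC content of 29.7% and a median signal of 17.4. In those with shorter arms these were 33.7% and 17.6. Both measures, of repeated and of self-complementary sequence, were chosen after the data were seen. Neither was taken over eligible intron sequence as a whole, so whether regions differ from other intron sequence was not tested.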

How the data were processed

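ChIP-seq peak lists of EYG-1-GFP from 2 libraries were used in the ce11 build (WBcel235). According to notes deposited beside each library, the authors called peaks and background regions on each replicate and on both together, and derived the optimal list with a threshold on the irreproducible discovery rate. Which aligner and caller were used is not given in the sources used here. Each region's signal is the caller's value as deposited by the authors, on a scale with no unit. The deposited −log10 q values were read from the format of the files, and for the optimal list it is not known whether they rest on a q-value. The deposited summit is an offset in bp and lay within 1 bp of the midpoint in 24139 of 24215 pooled regions. Lists carry no counts, so depth is unknown. Signals are on each list's own scale (median over matched pooled regions 11.7 in replicate 1 and 13.9 in replicate 3) and were not compared between the replicate lists. The replicate 1 list held 27360 regions and the replicate 3 list 24519, of which 13 were mitochondrial and left out.

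Summits were classed with the Ensembl annotation in the order promoter, small RNA gene, exon of any gene, intron, between genes. Lists were matched by summits within 100 bp. Introns were numbered in the transcript with the longest summed exons among those of the host with an intron over the summit. For the 101 regions over 2 or more genes, the gene with the lowest start coordinate gave the intron length and order. Named genes are the hosts of the 20 strongest intron regions in the optimal list, the 10 genes with the most intron regions and, in each of 11 gene lists, up to 3 with an optimal region or else the 2 with the strongest, and sequences are shown off chromosome I; the other optimal regions are given for completeness. The symbols nca-1 and snph-1 matched no gene. Members, lists and tables were chosen with earlier results of these data known. Class assignment, matching and motif search were checked on simulated regions. Python 3.11.15, numpy 2.4.6, pandas 2.3.3 and scipy 1.17.1 were used. No statistical test was made.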

Additional observations from a re-analysis of the deposited data

How the results depend on the processing

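The count of intron regions, 6715, stayed within 1.5 times under other promoter windows, distances to small RNA genes and exon sets (6511 to 7377), and the region midpoint gave the same count, since it lay within 1 bp of the summit in 6713 of them. With a −log10 q of at least 2 it fell to 113 in 89 host genes, by the construction of that setting; these had a median signal of 48.7, 26.5% in the optimal list (against 37.2% of all such pooled regions), 39.6% in a first intron and a median intron of 3728 bp, and held TAATTA in 2.65%, GAGAGA in 34.5%, TATAAA in 3.54%, CACGTG in 1.77% and TGATAA in 0.885%. The share in the optimal list was 0.104% with the same start and end (against 0.549% of all pooled regions), 0.745% with an overlap of 1 bp (against 2.98%) and 0.134% for the stronger part of that list (against 1.05%), so intron regions were below all pooled regions in each; leaving out a replicate, with the other's strongest 519 regions in its place, gave 0.447% to 0.477%. Matching in both replicates gave 8.47% at 50 bp and 22.9% at 200 bp, and 43.5% to 49.2% with a single replicate. The median signal in a single replicate was 11.1 to 13.3, on that list's own scale. Counting the first intron of any transcript gave 30.7%. Windows of 100 bp to each side held TAATTA in 10.4%, GAGAGA in 11.02%, TATAAA in 21.5%, GTTCGANNC in 1.43%, CACGTG in 2.67% and TGATAA in 13.3%, since they are longer. Of 41 alternatives, 27 moved a value beyond its interval or 1.5 times and 14 did not; these values have no sign that could turn. No paired analysis was possible because there is 1 group. The lists give no counts, so how depth limits the weak regions is not known.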
